A study of Mus musculus with 8 samples.

Results

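The endosomal sorting complexes required for transport (ESCRT) and the neighbouring machinery that forms and releases exosomes were followed through 8 total RNA libraries of the mouse macrophage-like line RAW264.7. The set held 34 genes, chosen by name out of the 55450 genes in the deposited count table, through GENCODE release M21. It covered ESCRT-0 (Hgs, Stam and Stam2), ESCRT-I (Tsg101, Vps28, Vps37a, Vps37b, Vps37c, Mvb12a and Mvb12b), ESCRT-II (Snf8, Vps25 and Vps36) and ESCRT-III (Chmp1a, Chmp1b, Chmp2a, Chmp2b, Chmp3, Chmp4b, Chmp5, Chmp6 and Chmp7). The remaining members were Vps4a, Vps4b and Vta1, the ALIX gene Pdcd6ip and the ALG-2 gene Pdcd6, the syntenin gene Sdcbp with the syndecan gene Sdc4, the flotillin genes Flot1 and Flot2, and the small GTPase genes Rab35, Rab7 and Arf6. All 34 were found, all were annotated as protein coding, and all passed the filter on low counts, the lowest count of any member in any library being 252. The annotation carries 2 overlapping Hgs genes on chromosome 11 (ENSMUSG00000025793 and ENSMUSG00000116045). Their counts were added for the levels and statistics of Hgs, but were kept as 2 rows in the main fits that tested the other genes.

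The control line, shNS, expressed a non-silencing shRNA. The other line, shDis3l2, expressed an shRNA against Dis3l2, whose product is an exoribonuclease that degrades uridine-tailed RNA. Both grew for 4 days with doxycycline, an agent commonly used to switch on an shRNA, at 1 µg/mL, or without it. There were 3 libraries of each line with doxycycline and 1 of each without it. The labels name no other allele or agent and give neither how the shRNA was introduced nor whether a line is a clone, and nothing in them says that the replicates were separate cultures, so a p-value here reflects the spread among these libraries, part of which may be technical.

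ESCRT complexes act in turn on the membrane of endosomes. ESCRT-0 gathers cargo marked with ubiquitin, ESCRT-I and ESCRT-II shape a bud that points into the endosome, and filaments of ESCRT-III, which the ATPase VPS4 takes apart, cut the bud loose as a small vesicle inside a multivesicular body. Fusion of that body with the plasma membrane releases the vesicles as exosomes, whereas fusion with a lysosome degrades them; in macrophages the same route turns down surface receptors. The study's title joins Dis3l2 to the loading of RNA into extracellular vesicles, and the comparisons here describe how the transcripts of vesicle-forming genes stood in the lines.

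Libraries held 30341847 to 45557831 counts. Levels below are in CPM, a gene's counts scaled to the size of its library, with TMM factors. Dis3l2 stood at 33.0, 28.7 and 22.0 CPM in shNS with doxycycline, at 12.0, 13.5 and 14.9 in shDis3l2 with doxycycline, and at 29.7 (shNS) and 28.6 (shDis3l2) without it. With doxycycline it was lower in shDis3l2 in every library (log2 fold change -1.05, SE 0.19, edgeR adjusted p = 0.0216), and without it the lines were within counting error of each other (ratio 0.965, 95% interval 0.887 to 1.05). Replicate 2 of shNS with doxycycline stood apart from its group: its log2 levels correlated at r = 0.984 with untreated shNS and at 0.939 and 0.945 with replicates 1 and 3. All 10 macrophage markers were detected, with summed levels of 8390.2 to 12450.2 CPM in shNS and 7287.2 to 10199.6 in shDis3l2 with doxycycline, and 7137.1 and 6782.7 without it. Of these, 1 passed between the lines with doxycycline, Adgre1, which fell (log2 fold change -2.7, edgeR adjusted p = 0.0368), and the list's median was 0.03. An unadjusted p under 0.05 was reached by 5 of the 10, Adgre1, Cd68 (-0.7) and Lyz2 (-0.72) on the lower side and Itgam (0.58) and Csf1r (0.52) on the higher side of shNS, with edgeR adjusted p of 0.134 to 0.222 for those 4. Of 5 osteoclast markers, which this line can express, Calcr was at 0 and Ctsk fell (-6.18, edgeR adjusted p = 0.0359). Ocstamp lay the other way without passing (2.39, edgeR adjusted p = 0.174), at 0.283 to 2.62 CPM in shNS and 4.23 to 8.27 in shDis3l2 with doxycycline, and at 0.412 and 7.02 without it. Dcstamp ranged from 0.38 to 59.7 CPM in shNS and from 17.4 to 37.1 in shDis3l2 with doxycycline (0.13, edgeR adjusted p = 0.977), and was at 0.275 and 26.1 without it. Acp5 was at most 3.17 CPM in any library. The summed levels of the 5 were 12.3 to 105.1 CPM in shNS and 22.7 to 43.9 in shDis3l2 with doxycycline, and 4.39 and 34.7 without it. T cell, B cell, fibroblast and epithelial markers summed to at most 0.259 CPM in any library. The part of these markers in the results below was not tested.

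Among all 34 members, Mvb12b, a subunit of ESCRT-I, was the only gene that passed edgeR's quasi-likelihood test (Benjamini-Hochberg adjusted p under 0.05 over 13752 genes) between shDis3l2 and shNS with doxycycline. It was lower in shDis3l2, and 0 members passed on the higher side. Throughout, fell and rose mean lower and higher in shDis3l2 than in shNS, not a change within a line. The fit behind this call kept the 2 Hgs rows apart, a choice made after both fits were seen. With the rows added before the fit, Tsg101 also passed, on the higher side (0.53, edgeR adjusted p = 0.0491). Across all genes tested, 6.14% passed, 2.13% higher and 4.01% lower in shDis3l2, so 1 call among 34 members is no more than the share over all genes. DESeq2 called 3 members, Mvb12b, Tsg101 and Sdcbp, where it called 12.7% of all genes, and limma-voom called Mvb12b alone among the members and 6.18% of all genes. The members' log2 fold changes ran from -1.47 to 0.51, with 16 above and 18 below 0 and a median of -0.04, beside a median of 0 over all genes. For 20 members the estimate lay within 0.25 log2 units of 0.

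The 95% interval of the log2 fold change lay inside a 2-fold change in either direction for 30 members, and for 61.1% of all genes. The exceptions were Mvb12b, Sdcbp, Sdc4 and Flot2. It lay inside a 1.5-fold change for 19 members, and for 30.9% of all genes. All genes took in every gene past the filter on low counts, whereas the lowest mean count of a member was 345.5. They were not matched to the members for level, and the part of level in these shares was not tested. An unadjusted p under 0.05 was reached by 10 members (29.4%), 2 with a positive and 8 with a negative difference, where 20.8% of all genes reached it, 8.8% with a positive and 12% with a negative difference. The 3 shNS and 3 shDis3l2 libraries with doxycycline did not overlap for 13 members (38.2%), 4 higher and 9 lower in shDis3l2, against 27.7% of all genes, 13.2% higher and 14.6% lower.

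**Figure D1:**
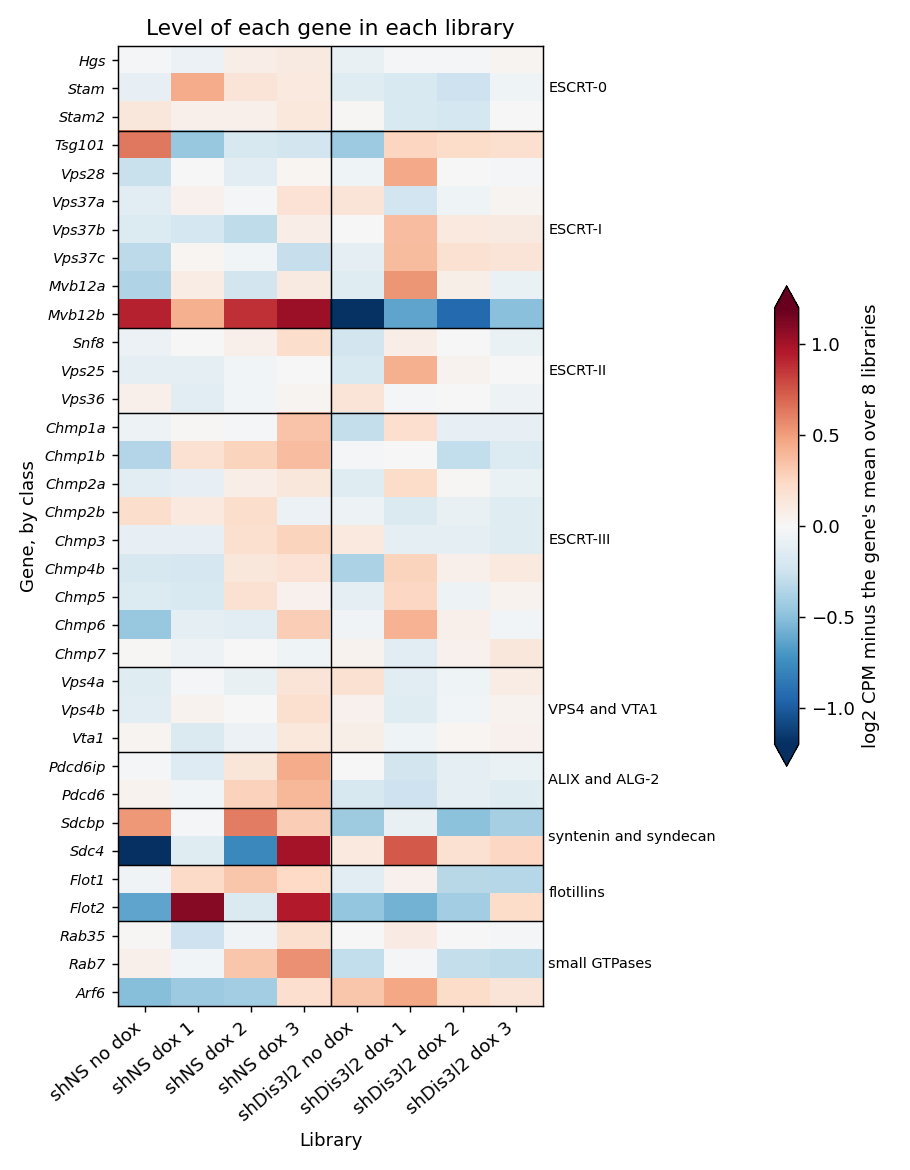
Level of each member in each library, as log2 CPM minus the gene's mean over the 8 libraries; rows are genes grouped by class, columns are libraries, and colours saturate beyond 1.2 log2 units. The Mvb12b row separates the lines with and without doxycycline, Tsg101 is highest in untreated shNS, and Flot2 and Sdc4 vary within shNS.

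Levels of different genes were compared per length, as CPM per kb of exon. In the mean of all 8 libraries Rab7, a GTPase of late endosomes, was the highest at 105.2 CPM per kb, and Arf6, a GTPase of the plasma membrane and recycling route, followed at 79.0. Chmp2a (46.0), Sdcbp (43.9) and Sdc4 (38.1) came next. Stam (3.73), Mvb12b (3.56) and Flot1 (3.32) closed the order. With the longest transcript as the length the order changed: Rab7 stayed first at 127.2 CPM per kb, but Sdcbp came second at 110.4, ahead of Arf6 (79.0) and Chmp2a (56.3), and Vps25 (42.4) and Chmp4b (42.0) stood above Sdc4 (39.5), while Vps37a (5.64) stood between Flot1 (5.27) and Mvb12b (6.22) at the bottom. The median over the members in shNS with doxycycline was 14.4 CPM per kb, and 19.5 when the longest transcript was used as the length. At the bottom the order depended on the line: Mvb12b stood at 5.24 CPM per kb in shNS with doxycycline, above Stam (4.38) and Flot1 (3.95), and at 1.89 in shDis3l2 with doxycycline, below both (3.3 and 2.85).

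The ratio of the highest to the lowest of the 8 libraries had a median of 1.57 over the members, beside 1.92 over all genes, and was below 1.5 for 14 of them. It reached 2 for Tsg101 (2.12), Sdcbp (2.16), Flot2 (3.33), Mvb12b (4.64) and Sdc4 (5.11). The least variable was Hgs (1.15), which encodes the ESCRT-0 subunit HRS. Within groups the median coefficient of variation was 11.6% in shNS and 9.09% in shDis3l2 with doxycycline, where all genes had 20.6% and 15.1%. The members' mean counts over the 8 libraries were 345.5 to 10868.9. All genes took in every gene past the filter on low counts and were not matched to the members for level. The part of level in these differences from all genes was not tested.

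**Figure D2:**
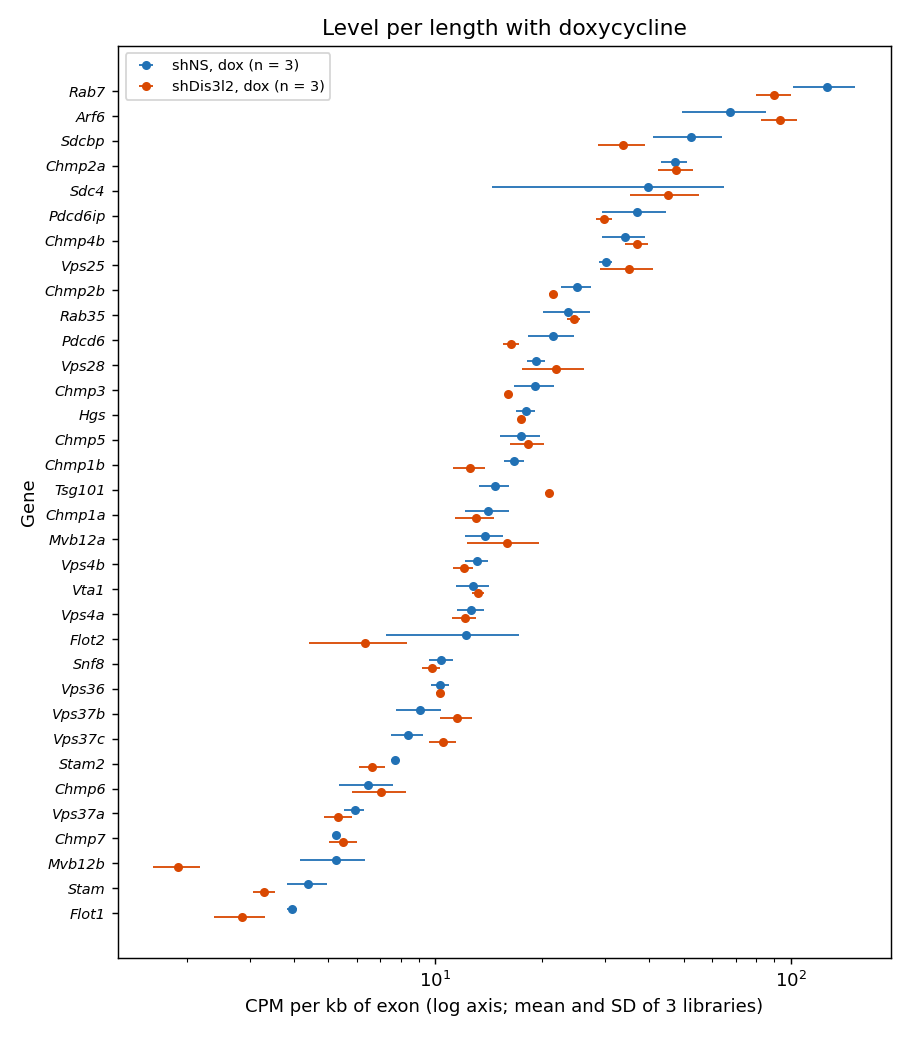
Mean level per length of each member with doxycycline, in CPM per kb of exon on a log axis, ordered by shNS; points are means and bars SD of 3 libraries per line. By exon length Rab7 and Arf6 lead in both lines, although Sdcbp (132.3 CPM per kb) lies above Arf6 (67.5) in shNS when the longest transcript is the length, and Mvb12b shows the widest separation of the line means on this axis.

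In ESCRT-I, the complex that links ubiquitinated cargo to the later steps, Mvb12b stood at 35.4, 48.4 and 53.7 CPM in shNS with doxycycline and at 17.0, 13.8 and 18.6 in shDis3l2 with doxycycline. The groups did not overlap, and every shDis3l2 library was far under the lowest shNS library. The means were 45.8 ± 9.46 and 16.5 ± 2.46 CPM (SD, n = 3 each), so shDis3l2 held 36.0% of the shNS level. The log2 fold change was -1.47 (SE 0.20, 95% interval -1.93 to -1.01, edgeR adjusted p = 0.00885). It kept its call in all 6 fits that left out 1 library, with log2 fold changes of -1.60 to -1.34 and edgeR adjusted p of 0.00677 to 0.0485, and was at -1.43 (adjusted p = 0.0112) without shNS replicate 2. In bulk RNA, fewer cells with the transcript and less transcript per cell cannot be told apart.

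Without doxycycline Mvb12b stood at 50.1 CPM in shNS and 11.6 in shDis3l2. The shDis3l2 library held 23.1% of the shNS level (ratio 0.231, 95% interval 0.208 to 0.256, counting error only), a log2 ratio of -2.11. Dis3l2 itself was at 29.7 and 28.6 CPM in these 2 libraries. The doxycycline effect on Mvb12b was -0.13 in shNS and 0.51 in shDis3l2 on the log2 scale, and neither passed (edgeR adjusted p = 1.0 for both).

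Mvb12a, the paralog that can take the same place in the complex, stood at 45.3, 36.6 and 45.8 CPM in shNS and at 61.6, 44.6 and 40.4 in shDis3l2 with doxycycline, and at 33.2 and 38.5 without it. The groups overlapped, and the log2 fold change of 0.20 did not pass (95% interval -0.24 to 0.64, edgeR adjusted p = 0.623). Per kb of exon, Mvb12b made up 27.5 ± 5.32% of the pair in shNS and 10.9 ± 2.72% in shDis3l2 with doxycycline (SD, n = 3), and 34.7% and 9.59% without it. Mvb12a made up 86.0 to 91.1% of the pair in the 4 shDis3l2 libraries and 65.3 to 78.5% in the 4 shNS libraries.

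The promoter windows of this pair and of Tsg101 are shown. They were chosen because Mvb12b is the member that passed, Mvb12a is its paralog, and Tsg101 is the member nearest to the threshold without passing it. Each window holds the 250 bases before the RefSeq start in GRCm38.p6, printed 5′ to 3′ on the gene's strand, with every CG pair in capitals. Mvb12b (gene at chr2:33729953-33887946, minus strand) has the window chr2:33887947-33888196, Mvb12a (chr8:71542922-71548085, plus strand) chr8:71542680-71542929, and Tsg101 (chr7:46888949-46919969, minus strand) chr7:46919970-46920219.
Mvb12b promoter window: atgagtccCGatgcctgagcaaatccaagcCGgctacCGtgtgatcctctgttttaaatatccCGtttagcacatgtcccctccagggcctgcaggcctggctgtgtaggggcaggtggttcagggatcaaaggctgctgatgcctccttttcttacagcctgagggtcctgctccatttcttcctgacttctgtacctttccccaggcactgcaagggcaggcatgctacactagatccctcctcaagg
Mvb12a promoter window: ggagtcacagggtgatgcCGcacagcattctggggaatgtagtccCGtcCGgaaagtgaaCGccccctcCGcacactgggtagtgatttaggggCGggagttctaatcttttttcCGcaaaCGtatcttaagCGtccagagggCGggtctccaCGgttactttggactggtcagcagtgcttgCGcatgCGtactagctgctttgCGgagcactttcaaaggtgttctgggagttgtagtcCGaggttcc
Tsg101 promoter window: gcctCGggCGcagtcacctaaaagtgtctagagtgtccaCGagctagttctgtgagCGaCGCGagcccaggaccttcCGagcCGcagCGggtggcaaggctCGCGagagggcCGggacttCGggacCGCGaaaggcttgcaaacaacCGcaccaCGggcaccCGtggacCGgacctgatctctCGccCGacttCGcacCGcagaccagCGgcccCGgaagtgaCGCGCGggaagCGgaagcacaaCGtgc
The Mvb12b window holds 4 CG pairs, the Mvb12a window 15 and the Tsg101 window 30, at G+C contents of 55.2%, 55.2% and 66.8%. RefSeq promoter entries matched 24 of the 34 members, giving 27 windows with a median of 17 CG pairs, beside 6 in all 32851 windows. Mvb12b had the second fewest among the members' windows, after a Vps37c window with 2. Of all windows, 44.4% held as few CG pairs as Mvb12b or fewer. The E-box CACGTG, searched on both strands of the same 250 bases, occurred in the windows of 1 matched member, Pdcd6ip (4.17% of matched members, 6.86% of all genes with a window). The Mvb12b, Mvb12a and Tsg101 windows did not hold it, and a match is of letters only, not of binding.

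Tsg101, which encodes the ubiquitin-binding core of ESCRT-I and is named here after its values were seen, stood at 35.6, 42.6 and 42.0 CPM in shNS and at 58.5, 57.0 and 55.6 in shDis3l2 with doxycycline. Without doxycycline it was at 75.5 in shNS and 36.1 in shDis3l2. With doxycycline every shDis3l2 library was above every shNS library, and without it the order was turned round. The log2 fold change with doxycycline was 0.51 (SE 0.12, 95% interval 0.23 to 0.80) and missed the threshold by edgeR (adjusted p = 0.0563), while DESeq2 called it (adjusted p = 0.0113). It also passed when libraries were scaled by total counts alone (0.57, edgeR adjusted p = 0.03) and when the Hgs rows were added before the fit (0.53, edgeR adjusted p = 0.0491), but not in the other edgeR or limma-voom fits. Its edgeR adjusted p was 0.144 with the replicate number as a block and 0.0625 to 0.214 in the 6 fits that left out 1 library, of which 0 called it. The ratio without doxycycline was 0.478 (95% interval 0.448 to 0.510, counting error only).

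The doxycycline effect on Tsg101 was -0.92 in shNS and 0.66 in shDis3l2 on the log2 scale. The difference between these effects was 1.58 (SE 0.25, 95% interval 1.00 to 2.15). It did not pass over 15250 genes by edgeR (unadjusted p = 3.17e-04, adjusted p = 0.704) and passed by DESeq2 (adjusted p = 2.64e-04). Each effect rests on 1 untreated library, which the fit assumes to vary like the others.

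**Figure D3:**
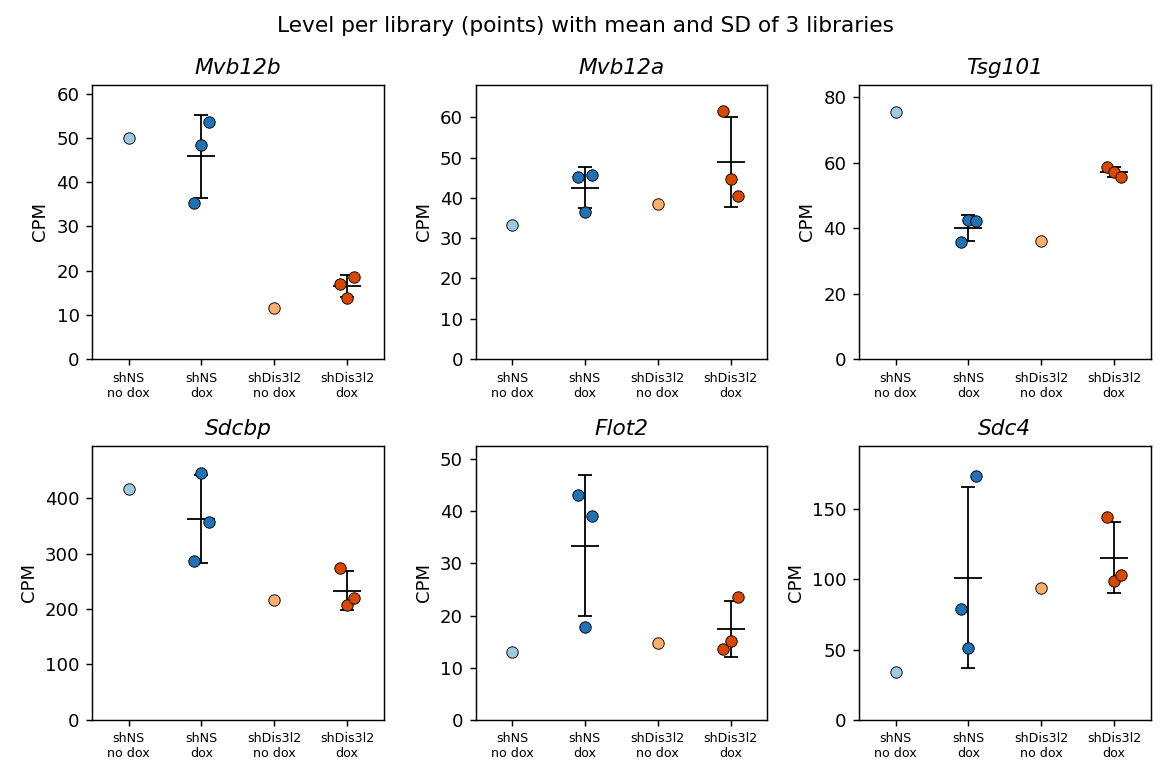
Level of 6 members in each library, in CPM on axes that start at 0; points are libraries, and the lines are the mean and SD of the 3 libraries with doxycycline. Mvb12b is low in all 4 shDis3l2 libraries, Tsg101 has opposite orders of the lines with and without doxycycline, and Flot2 and Sdc4 spread widely in shNS with doxycycline.

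Of the other ESCRT-I genes 0 passed by edgeR or DESeq2, and Vps37c alone had an unadjusted p under 0.05. Vps28, the subunit that reaches ESCRT-II, had a log2 fold change of 0.20, and of the interchangeable Vps37 subunits Vps37a had -0.15, Vps37b 0.34 and Vps37c 0.34 (edgeR adjusted p = 0.236 to 0.581 over these genes). Vps37b and Vps37c were higher in every shDis3l2 library than in any shNS library with doxycycline, at 29.9 to 35.8 against 22.4 to 29.4 CPM and at 26.9 to 31.3 against 19.9 to 24.5 CPM. Vps37a made up 25.4 ± 0.687% of the 3 Vps37 genes per kb in shNS and 19.6 ± 2.82% in shDis3l2 with doxycycline (SD, n = 3), but 24.3% and 25.6% without it. An 85-base stretch of exon is shared on the same strand by Vps28 and Tonsl (18.4 CPM on average), so their counts are partly estimates.

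In ESCRT-0 all 3 genes had negative differences; 0 passed by edgeR or DESeq2, and 1, Stam, had an unadjusted p under 0.05. Stam, whose product pairs with HRS to bind ubiquitin, stood at 42.2, 34.3 and 33.6 CPM in shNS and at 27.2, 26.1 and 29.8 in shDis3l2 with doxycycline. The groups did not overlap, but the log2 fold change of -0.41 (SE 0.14, edgeR adjusted p = 0.16) did not pass, and the untreated libraries were alike at 28.9 and 28.0 CPM. Its paralog Stam2 was at -0.21 and Hgs at -0.02, with Hgs between 49.0 and 56.1 CPM in all 8 libraries. Stam2 held the larger part of the Stam pair per kb in every library, 60.1 to 69.9%.

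In ESCRT-II, the bridge to ESCRT-III, 0 of 3 genes passed by edgeR or DESeq2 or had an unadjusted p under 0.05. Vps25, which recruits ESCRT-III, stood at 47.2, 50.3 and 51.1 CPM in shNS and at 68.8, 52.8 and 51.1 in shDis3l2 with doxycycline, and at 47.6 and 45.1 without it. Replicate 1 of shDis3l2 was the high library. The groups did not overlap, but only by a margin smaller than the rounding, as the lowest shDis3l2 and the highest shNS library both stood at 51.1 CPM, and the log2 fold change of 0.22 (SE 0.15, edgeR adjusted p = 0.471) was 0.07 at its lowest when 1 library was left out. Snf8 was at -0.09 and Vps36 at 0.01.

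The 9 ESCRT-III genes, which encode the filament subunits and their partners, ran from -0.42 to 0.13 with a median of 0.02, 5 positive and 4 negative; 0 passed by edgeR or DESeq2. Chmp1b, a late-acting subunit, had the largest difference and alone had an unadjusted p under 0.05. Its levels were 39.6, 42.0 and 45.0 CPM in shNS and 35.0, 28.5 and 31.1 in shDis3l2 with doxycycline. These groups did not overlap (log2 fold change -0.42, SE 0.13, edgeR adjusted p = 0.116), while the untreated libraries were ordered the other way, at 27.4 CPM in shNS and 34.6 in shDis3l2. Chmp2b (-0.22) and Chmp3 (-0.25) also had groups that did not overlap, with edgeR adjusted p of 0.38 and 0.336. Chmp4b, the gene of a main filament former, was at 0.11 (95% interval -0.22 to 0.45), and Chmp7, whose product also acts at the nuclear envelope, at 0.07. Chmp2a outweighed Chmp2b per kb throughout, with 60.7 to 71.9% of the pair.

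Of the 3 disassembly genes 0 passed by edgeR or DESeq2 or had an unadjusted p under 0.05. Vps4b stood at 113.5, 110.0 and 126.4 CPM in shNS and at 99.6, 107.8 and 113.5 in shDis3l2 with doxycycline, with 100.7 and 114.7 without it. The groups overlapped (log2 fold change -0.12, 95% interval -0.41 to 0.17, edgeR adjusted p = 0.65). Vps4a, the other gene of the ATPase, was at -0.05, and Vta1, whose product stimulates it, at 0.04. Per kb of exon the 2 ATPase genes were close to equal in all 8 libraries, with Vps4a at 48.4 to 52.2% of the pair, although it was at 36.1 to 39.7% when the longest transcript was the length. Exons of Vps4a overlap the antisense gene Pdf by 57 bases, and the strand setting of the counting is not given in the sources used here.

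ALIX (Pdcd6ip), an adaptor that leads syntenin cargo to ESCRT-III, and its calcium-dependent partner ALG-2 (Pdcd6) were both on the negative side. Pdcd6 stood at 50.1, 61.9 and 67.5 CPM in shNS and at 42.9, 47.5 and 46.2 in shDis3l2 with doxycycline, and at 52.6 and 44.8 without it. Every shDis3l2 library was below every shNS library, but the log2 fold change of -0.39 (SE 0.14, edgeR adjusted p = 0.177) did not pass. Pdcd6ip was at -0.30 (95% interval -0.70 to 0.10), with shNS replicate 3 the highest library at 309.6 CPM.

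Sdcbp encodes syntenin, the scaffold that ties syndecans to ALIX in exosome formation. It stood at 286.3, 446.3 and 356.6 CPM in shNS and at 273.5, 206.6 and 220.5 in shDis3l2 with doxycycline, and at 416.9 and 216.8 without it. All 4 shDis3l2 libraries were below all 4 shNS libraries, the nearest being 273.5 against 286.3 CPM. The same order held for Mvb12b, Pdcd6 and Stam2, and its share over all genes was not computed. The log2 fold change of Sdcbp with doxycycline was -0.63 (SE 0.20, 95% interval -1.10 to -0.17). It did not pass by edgeR (adjusted p = 0.12), while DESeq2 called it (adjusted p = 0.0373). Without shNS replicate 2 it was -0.46 (edgeR adjusted p = 0.255), and the untreated ratio was 0.520 (95% interval 0.507 to 0.534, counting error only). Exons of Sdcbp overlap the antisense gene Nsmaf (42.9 CPM on average) by 78 bases.

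Sdc4, a syndecan cargo of that route, was the most variable member. Its levels were 78.6, 50.9 and 173.6 CPM in shNS and 144.5, 98.4 and 103.0 in shDis3l2 with doxycycline, and 34 and 94.0 without it. The shNS libraries spanned the whole shDis3l2 range, and the log2 fold change of 0.20 had an interval of -0.85 to 1.24 (edgeR adjusted p = 0.863). The untreated ratio was 2.77 (95% interval 2.59 to 2.95, counting error only).

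The flotillins are membrane scaffolds often found on exosomes. Flot2 stood at 43.1, 17.9 and 39.2 CPM in shNS and at 13.6, 15.1 and 23.5 in shDis3l2 with doxycycline, and at 13.0 and 14.7 without it. Replicate 2 of shNS was the low library of its group and near untreated shNS, and the groups overlapped (log2 fold change -0.94, SE 0.37, edgeR adjusted p = 0.207). Without that replicate the difference was -1.24 and passed (edgeR adjusted p = 0.0284). Flot1 stood at 11.1 to 11.9 CPM in shNS and 7.45 to 9.79 in shDis3l2 with doxycycline, which did not overlap (-0.47, edgeR adjusted p = 0.185), and at 9.20 and 8.69 without it.

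Among the small GTPases, Rab7, which matures endosomes and steers them to lysosomes, stood at 262.6, 337.9 and 393.7 CPM in shNS and at 265.0, 221.1 and 218.3 in shDis3l2 with doxycycline, and at 279.7 and 218.8 without it. The groups just overlapped, and the log2 fold change of -0.49 (SE 0.18, edgeR adjusted p = 0.171) did not pass. Arf6, which acts with syntenin in budding, had the opposite sign at 0.47 (95% interval 0 to 0.94, edgeR adjusted p = 0.24), with 87.0, 88.3 and 135.2 CPM in shNS, 161.7, 136.6 and 130.5 in shDis3l2, and 82.4 and 148.0 without doxycycline. Of its shNS libraries only replicate 3 reached the shDis3l2 range, and the untreated ratio was 1.80 (95% interval 1.72 to 1.88, counting error only). Rab35, which helps to dock multivesicular bodies, lay at 0.05 (95% interval -0.28 to 0.38).

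**Figure D4:**
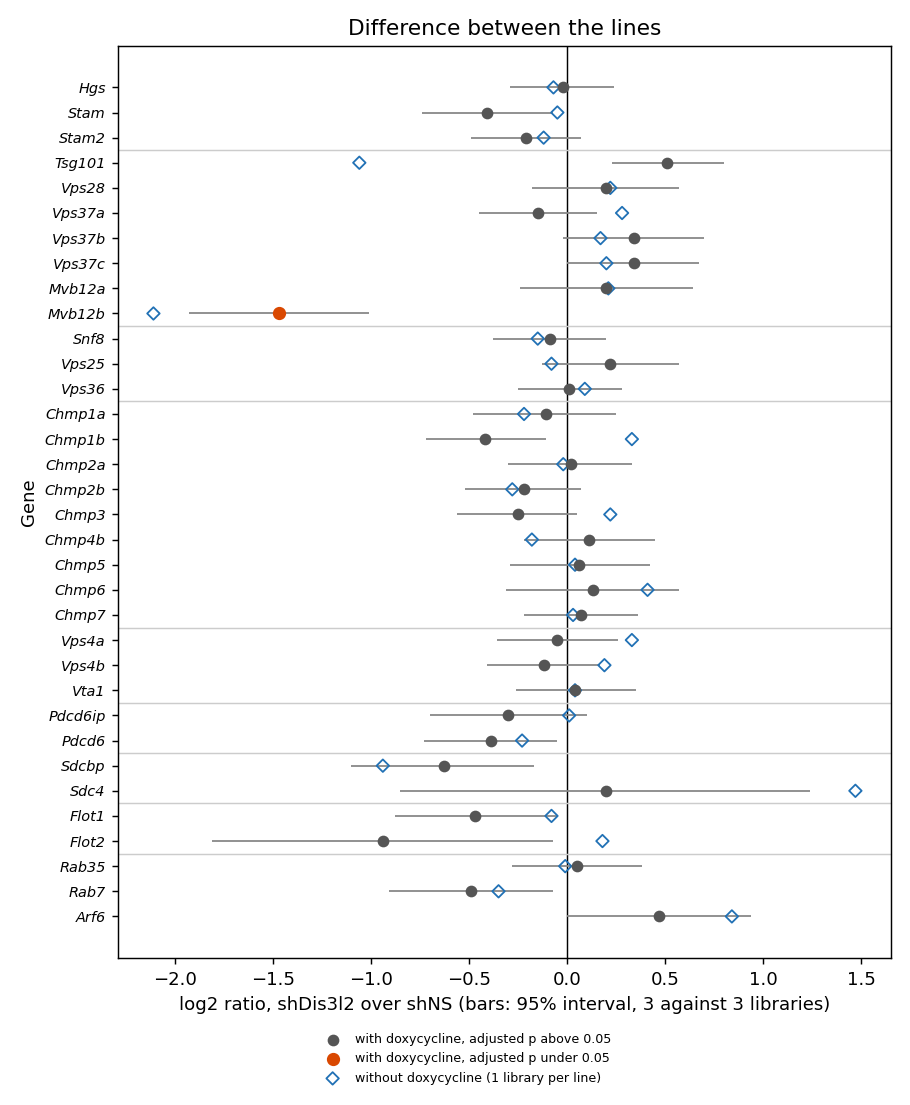
Log2 ratio of shDis3l2 over shNS for each member; filled points with 95% interval bars are the 3 against 3 libraries with doxycycline, and open diamonds the single pair without it. Mvb12b is the only member past the threshold, and Tsg101 is the member whose diamond lies farthest on the other side of 0 from its point.

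Without doxycycline, the median log2 ratio over the members was 0.02, beside 0 over all genes, and 23 members lay within 0.25 log2 units of 0. The 3 members with at least 1 log2 unit between the lines were Mvb12b (-2.11), Tsg101 (-1.06) and Sdc4 (1.47), and 17% of all genes reached that size. The sign was the same as with doxycycline for 22 members (64.7%), and for 68.5% of all genes. With 1 library per line there is no replicate check on these ratios.

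The doxycycline effects asked which members responded to the agent in each line. They rest on 1 untreated library per line. Dis3l2 itself, at -1.09 in shDis3l2 and -1.0 for the difference between the lines on the log2 scale, did not pass by edgeR. A gene that did not pass can therefore still have responded. By edgeR 0 members and 0 of 15250 genes (0%) passed in shNS, in shDis3l2 or for the difference between the lines. An unadjusted p under 0.05 was reached by 3 members in shNS (4.24% of all genes), 2 in shDis3l2 (3.3%) and 2 for the difference (3.78%). DESeq2 called Tsg101 alone among the members in shNS (0.472% of all genes), 0 in shDis3l2 (0.42%) and Tsg101 for the difference (0.223%). The members' median effect was 0.19 in shNS and 0.09 in shDis3l2, beside 0.01 and 0 over all genes. In 5 members, Tsg101, Vps37a, Chmp3, Vps4a and Vps4b, the treated libraries all lay on opposite sides of the untreated library in the 2 lines, as they did in 12.4% of all genes.

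Neighbouring genes were read for shifts shared along a chromosome. The genes tested within 5 Mb of a member had a median log2 fold change of -0.12 to 0.19, depending on the member, and it was -0.05 over 129 genes around Mvb12b and -0.04 over 112 around Tsg101.

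Beyond the members, 5 lists of the wider pathway held 133 genes, of which 114 were tested with doxycycline; 1 rose and 8 fell by edgeR (7.89%, beside 6.14% of all genes). The list of ubiquitin ligases and cargo adaptors, which mark and collect cargo ahead of ESCRT-0, held 5 of these 9, with 1 of its 23 tested genes higher, 4 lower and a median of -0.18. Arrdc4, an arrestin-like adaptor of ubiquitin ligases, had 10.9, 6.97 and 7.71 CPM in shNS with doxycycline and 5.27 in untreated shNS. It had 0 counts in all 4 shDis3l2 libraries. Against a floor of 3 counts per library it was at least 104.5-fold lower with doxycycline (edgeR adjusted p = 0.00169). Epn2, an endocytic adaptor, fell by 2.48 (edgeR adjusted p = 0.00434), Wwp1, a ubiquitin ligase, by 1.31 (adjusted p = 0.00487) and Gga2, an adaptor of sorting from the Golgi, by 1.18 (adjusted p = 0.0125), all on the log2 scale.

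Arrdc4, Epn2 and Wwp1 kept their calls in all 6 fits that left out 1 library, and Gga2 in 4, losing it when replicate 2 or 3 of shDis3l2 was left out (edgeR adjusted p up to 0.0642). The riser of that list, Cbl, a ubiquitin ligase of surface receptors named here after its values were seen, was at 0.69 (edgeR adjusted p = 0.037) and lost its call when replicate 2 or 3 of either line was left out (edgeR adjusted p up to 0.174). Without doxycycline Cbl was at 226.5 CPM in shNS and 388.4 in shDis3l2. The 74 genes tested within 5 Mb of Cbl on chromosome 9 had a median of 0.52, with 87.8% of them positive. The part of these neighbours in the result was not tested.

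By DESeq2, 26 of the 114 were called, where it called 12.7% of all genes: 6 in the ubiquitin list, 3 among ESCRT-associated genes, 6 each in the docking and the RAB7 lists and 5 in the ARF6 list. Differences between the lists were not tested. Of 16 tested ESCRT-associated genes 1 fell, Lgals3, a galectin recruited to damaged endosomes, at 572.6, 787.8 and 1299.7 CPM in shNS and 331.5, 210.9 and 271.0 in shDis3l2 (log2 fold change -1.71, edgeR adjusted p = 0.0264), and the list's median was 0.05. It lost its call when any 1 shDis3l2 library was left out (up to 0.12). Without doxycycline Lgals3 was at 511.2 CPM in shNS and 254.5 in shDis3l2. Of 25 tested genes of docking, fusion and ESCRT-independent release 1 fell, Pld1, a phospholipase linked to vesicle budding (-1.46, edgeR adjusted p = 0.0216), with a list median of -0.10. Its call was lost without shNS replicate 3 or shDis3l2 replicate 2 or 3 (up to 0.0967). Untreated, Pld1 stood at 12.9 CPM in shNS and 4.04 in shDis3l2. Rab27a, the docking GTPase of secretory vesicles, was at 0.67 and missed the threshold by edgeR (adjusted p = 0.0533), while DESeq2 called it. It too was picked with its values known, and the 52 genes tested around it on chromosome 9 had a median of 0.58. Mitd1, an ESCRT-associated gene, was nearer to the threshold (0.65, edgeR adjusted p = 0.0508), and the 63 genes tested around it had a median of 0.04. DESeq2 called Mitd1 and Ccdc50 higher in that list, beside Lgals3 lower. Without doxycycline Rab27a was at 14.0 CPM in shNS and 14.6 in shDis3l2, and Mitd1 at 10.1 and 10.6.

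Of 23 tested RAB7 regulators and tethers 2 fell, with a list median of -0.18. They were the RAB GTPase-activating proteins Tbc1d2, at 18.1, 56.4 and 21 CPM in shNS and 5.51, 3.91 and 3.84 in shDis3l2 (log2 fold change -2.84, edgeR adjusted p = 0.0213), and Tbc1d2b (-1.14, adjusted p = 0.0246). Tbc1d2 was highest in shNS replicate 2, near the 47.8 CPM of untreated shNS, and lost its call when any 1 shDis3l2 library was left out (up to 0.12), and Tbc1d2b without shDis3l2 replicate 2 or 3 (up to 0.117). In untreated shDis3l2 Tbc1d2 was at 4.6 CPM. Untreated Tbc1d2b was at 49.5 CPM in shNS and 19.8 in shDis3l2. Of 27 tested ARF6 and RAB35 regulators 0 passed by edgeR, and the list's median was 0.01. DESeq2 called 5, all lower (12.7% of all genes in either direction). By edgeR 6 had an unadjusted p under 0.05, near the 20.8% of all genes. The smallest was that of Psd4, an ARF6 exchange factor (log2 fold change -3.47, SE 0.92, edgeR adjusted p = 0.0787). Its levels were low, at 0.913, 1.52 and 3.02 CPM in shNS and 0.343, 0.117 and 0 in shDis3l2 with doxycycline. Untreated Psd4 was at 1.73 CPM in shNS and 0.0763 in shDis3l2.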

How the data were processed

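Total RNA libraries of RAW264.7 cells were made with a stranded kit that removes ribosomal RNA, per the labels' protocols. The authors' deposited table holds expected counts, not normalized, for 8 libraries of 30341847 to 45557831 counts. The submitters' processing notes name cutadapt, RSEM and STAR 2.7, with GRCm38 and mm10; their annotation and strand setting were not given in the sources used here. Identifiers were matched to GENCODE M21. Where paralogs or overlapping genes share sequence, RSEM splits the reads, and their values are estimates. The members and lists were chosen with earlier results of these data known.

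Expected counts were rounded. Genes passing edgeR's filterByExpr (minimum count 10) were scaled by TMM and tested with edgeR's robust quasi-likelihood test (R 4.3.3, edgeR 4.0.16, limma 3.58.1, DESeq2 1.42.0), two-sided, with Benjamini-Hochberg adjustment over all genes and a threshold of 0.05. The script was tested on simulated counts. The line comparison used the 6 doxycycline libraries; doxycycline effects and their difference used all 8 as 4 groups. The untreated lines were set side by side as log2 ratios (prior count 2), untested. Intervals of untreated ratios are 95% exact binomial ones and, like floors (3 counts per library), cover counting error only.

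All fits but 1 kept the 2 Hgs rows as deposited; Hgs statistics come from a fit with the rows added. That choice was made after both were seen. Full values are given for members past the threshold and for the member with the largest difference in each class. From each list up to 4 genes past the threshold are named, or the 1 with the smallest p. Some of these are given without the value in every library. Tsg101, Arf6, Sdc4, Cbl, Rab27a, Mitd1 and Ccdc50, and other members given in part, were added after their values were seen. Vamp7 was not analysed here. The main fits did not take replicate numbers as pairs. Deviations of same-numbered replicates correlated at -0.128, 0.0262 and -0.00096, which cannot tell whether those samples shared a culture or a batch. Alternatives were other scalings, filters and tests, a replicate block, all 8 libraries, and leaving out each doxycycline library.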

Additional observations from a re-analysis of the deposited data

Results flagged for a closer look

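In 5 members the treated libraries all lay above the untreated library in the first line and below it in the second, or the reverse. For Tsg101 they were below in shNS and above in shDis3l2, with a log2 difference between the effects of 1.58 (edgeR unadjusted p = 3.17e-04, adjusted p = 0.704). The other 4 were above in shNS and below in shDis3l2. The differences were -0.43 for Vps37a, -0.47 for Chmp3, -0.38 for Vps4a and -0.31 for Vps4b. None passed by edgeR, whose adjusted p was 1.0 for all 4. Of all 15250 genes, 12.4% showed such opposite sides, and each line had 1 untreated library.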

How the results depend on the processing

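Between the lines with doxycycline 1 member was called by edgeR, and 2 with library size alone or with the Hgs rows added (Tsg101 beside Mvb12b), 3 by DESeq2, and 1 to 2 when 1 library was left out (Flot2 without shNS replicate 2). Adding the Hgs rows changed the library that TMM takes as its reference, and all-gene calls from 293 higher and 552 lower to 312 and 529. For the doxycycline effect in shNS the count was 0, 1 by DESeq2, and 0 to 1 when 1 library was left out, both times Tsg101; for the difference between the effects DESeq2 gave 1. The pathway lists had 9 calls, 26 by DESeq2 and 3 to 11 when 1 library was left out, 3 of them without shDis3l2 replicate 2 or 3. The cause of these shifts was not tested. With the replicate number as a block the members' count was 1 (Mvb12b, log2 fold change -1.46, edgeR adjusted p = 0.0328). The lists then had 5 calls and all genes 132 higher and 289 lower. The check of the numbers gave correlations of -0.128 to 0.0262. It cannot tell whether same-numbered samples shared a culture or a batch, and the labels do not say. The median level per length was 14.4 CPM per kb, and 19.5 with the longest transcript. Of 150 values of 10 named members under 15 settings, 145 stayed on their side of the threshold and 5 passed newly (Tsg101 3 times, Sdcbp and Flot2 once each), with 0 changes of sign. When 1 library was left out, all-gene calls ranged from 74 higher and 129 lower (without shDis3l2 replicate 2), 92 and 167 (without its replicate 3) and 147 and 317 (without its replicate 1) to 504 higher and 653 lower (without shNS replicate 1).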
